A study of Homo sapiens with 6 samples.

Results

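The genes described here are 49 genes of the lysosome and the V-ATPase, chosen by name among the 60612 Ensembl gene identifiers of the count table. They comprise 11 proteases, 10 glycosidases, 4 sulfatases, 6 genes of lipid and lipoprotein turnover, 6 membrane proteins, 2 transcription factors, and 4 V0 and 6 V1 subunits of the pump. Every symbol matched 1 identifier, and all 49 genes passed the filter on low counts.

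The lysosome is the acidic compartment in which cells break down proteins, sugars, lipids and nucleic acids. Its lumen holds soluble acid hydrolases, its membrane holds heavily glycosylated proteins and transporters, and a proton pump, the V-ATPase, acidifies it. The pump has a membrane sector, V0, through which protons pass, and a cytosolic sector, V1, which hydrolyses ATP. The related transcription factors TFEB and TFE3 bind E-box sequences in promoters of many lysosomal genes and are held in the cytosol by nutrient signalling through mTORC1. Cathepsins, which are lysosomal proteases, are also secreted by many tumour cells.

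RNA depleted of ribosomal RNA was sequenced from T24 cells, a line established from a human bladder carcinoma. The protocols given for all 6 libraries describe infection with lentivirus and selection with puromycin. In 3 libraries, labelled FOXF1-activated, the virus carried a short hairpin made from dsFOXF1-367, a small activating RNA for the FOXF1 gene. In the other 3 libraries, labelled negative control, it carried the hairpin of a control duplex, dsControl, and the genotype of these cells is given as WT. The labels name neither a clone nor a time after selection. Nor do they state that each library was its own culture, so each p-value reflects the spread of these libraries, possibly only a technical one.

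Library totals were 72500854 to 77198669 counts. FOXF1 (ENSG00000103241), the gene the hairpin was designed to raise, had 5.94, 4.78 and 5.10 CPM (counts per 1e6 counts after TMM scaling) in the libraries labelled FOXF1-activated, against 7.51, 7.10 and 7.95 CPM in negative control libraries, and all 3 lay below all 3 controls (edgeR adjusted p = 0.0109, log2 change -0.51 ± 0.14, SE). The targeted gene thus ran against the label. Fold changes are given with the libraries labelled FOXF1-activated over the negative control libraries. If the labels of the groups were exchanged, every sign given here would turn, and whether they were was not tested. The keratin genes KRT8, KRT18 and KRT7, markers of epithelial cells, averaged 508 ± 5.3, 481 ± 29.6 and 203 ± 16 CPM in libraries labelled FOXF1-activated and 651 ± 23, 532 ± 22 and 539 ± 41 CPM in the controls (SD, n = 3 each). KRT7 and KRT8 were called lower (log2 fold change -1.41 and -0.36) and KRT18 was not called. EPCAM, a further epithelial marker, fell by 1.29, at 0.38 CPM in libraries labelled FOXF1-activated and 0.94 CPM in the controls. KRT19, at 1.72 and 2.13 CPM, was not called. The epithelial cadherin gene CDH1 had 0 to 4 counts in a library. The 5 fibroblast markers summed to 240.3 to 377 CPM in libraries labelled FOXF1-activated and 321 to 373 CPM in the controls, with 2 lower (PDGFRB and LUM) and 0 higher. FN1, the fibronectin gene, took 0.277 to 0.287% of counts in the libraries labelled FOXF1-activated and 3.22 to 3.39% in the controls, and mitochondrial transcripts took 6.44 to 7.27% in the libraries labelled FOXF1-activated and 5.04 to 5.43% in the controls; the part of these differences in the results was not tested.

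The lysosomal genes split by role. Genes of the hydrolases and their cofactors were mostly lower in the libraries labelled FOXF1-activated, whereas 9 of the 10 V-ATPase subunit genes among the 49 were higher. Of the 49 genes, 20 rose and 25 fell at an edgeR adjusted p under 0.05. Of all 20334 tested genes 60.7% were called, with 29.2% higher and 31.5% lower. Calls were thus common across the transcriptome, and more common still among the 49 genes, each with at least 89 counts a library. With a filter of 1 CPM in 3 libraries, 5373 of 14638 tested genes were higher and 5641 lower. Of the 49, 20 and 25 were so under that filter. The part of abundance in the share called was not tested. The median log2 fold change was -0.24 over the members and 0 over all tested genes. With offsets for GC content and length these medians were -0.12 and -0.028. For 47 of the 49 genes the libraries of one group all lay on one side of those of the other, against 68.8% of all tested genes. The libraries labelled FOXF1-activated lay above for 20 of them and below for 27, against 33.5% and 35.3% of all tested genes. A change of at least 2-fold was called for 6 higher and 12 lower genes, where 12.9% and 15.9% of all tested genes reached it.

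Of the 31 genes of the proteases, glycosidases, sulfatases and lipid turnover, 23 fell and 7 rose, with a median log2 fold change of -0.59. Of the 10 pump subunits, 9 rose and 0 fell, with a median of 0.84. Among all tested genes 29.2% rose and 31.5% fell. The summed level of the 31 genes was 7775, 8156 and 7727 CPM in libraries labelled FOXF1-activated, against 9686, 10440 and 9925 CPM in the controls. That of the 10 subunits was 2149, 1987 and 2044 CPM in libraries labelled FOXF1-activated, against 1172, 1230 and 1197 CPM in the controls, so the sums moved in opposite directions. CTSB made up most of the drop in the sum of the 31 genes. It averaged 1519 CPM in libraries labelled FOXF1-activated and 3174 CPM in the controls. The ratio of summed levels was 0.61 for the proteases, 0.64 for the sulfatases, 0.96 for the glycosidases and 1.04 for lipid turnover. In libraries made from bulk RNA, fewer cells that express a gene and less of its RNA per cell cannot be told apart.

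**Figure D1:**
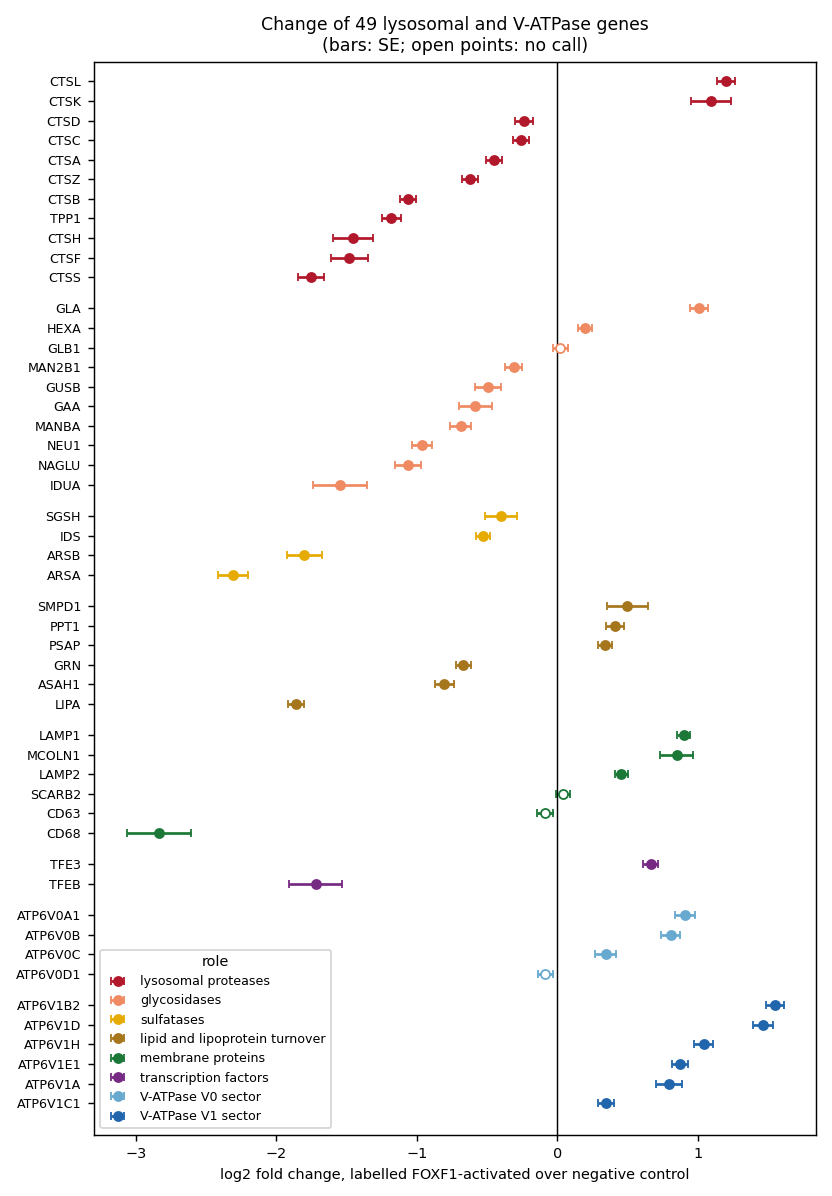
Log2 fold change of each of the 49 genes in the libraries labelled FOXF1-activated relative to negative control (points, with the standard error as bars, 3 libraries a group), grouped by role, with open points for genes that did not pass the test. The 6 V1 subunits lie between 0.35 and 1.55, all right of 0, and the 4 sulfatases between -2.31 and -0.40, all left of it.

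The transcription factors of the list moved in opposite directions. TFEB (chr6:41683978-41736259 in GRCh38, minus strand) had 1.43, 1.26 and 1.70 CPM in libraries labelled FOXF1-activated, against 4.75, 5.00 and 4.72 CPM in the controls. It fell by 1.72 on the log2 scale (standard error 0.19, edgeR adjusted p = 3.23e-05), and its level per kilobase of transcript was the lowest of the 49 genes in both groups. TFE3, its close relative with the same DNA-binding preference, had 247, 256 and 252 CPM in libraries labelled FOXF1-activated, against 167, 157 and 153 CPM in the controls. It rose by 0.66 (standard error 0.053, edgeR adjusted p = 3.67e-06). Scaled to the length of the principal transcript, TFE3 stood at 73.7 CPM per kilobase in the libraries labelled FOXF1-activated and 46.5 in the controls, and TFEB at 0.621 and 2.05. MITF, the third of the family, rose by 0.70 at 1.55 CPM per kilobase in the libraries labelled FOXF1-activated and 0.956 in the controls. Of the MiT/TFE transcripts measured here, that of TFE3 was thus the most abundant in both groups, and TFEC, the fourth, had 22, 33 and 24 counts in the libraries labelled FOXF1-activated, against 0, 4 and 10 in the controls (edgeR adjusted p = 0.0416). MITF and TFEC are named here with their values already seen.

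Promoters of the members were searched for the E-box that these factors are known to bind. RefSeq promoter sequences, from 250 bases before to 50 bases after a start, were at hand for 34 of the 49 genes, 7 of them with several starts. The E-box CACGTG, which reads the same on both strands, occurred in 11 of the 34 genes, or 32.4%, against 11.9% of the 12780 tested genes with a promoter sequence and 8.77% of all 27305. The longer TCACGTGA, which contains it, occurred in 5 of the 34 (14.7%), against 1.99% of tested genes, and these 5 were LAMP1, MCOLN1, CTSA, GAA and ATP6V0D1. The 11 genes with an E-box did not share a direction. Of them, 3 rose (LAMP1, MCOLN1 and ATP6V0B), 6 fell (ARSB, CTSA, CTSD, CTSF, GAA and NEU1) and 2 were not called (CD63 and ATP6V0D1). The share that rose lay near the 29.2% of all tested genes, of which 31.5% fell. Calls among all tested genes with an E-box were not counted. A match to these letters is a description and not a site of binding.

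Stretches upstream of the start are shown for 2 genes that rose and 3 that fell, chosen among those outside annotated exons in GENCODE 29 to let the E-boxes of genes with opposite changes be compared. They are written 5′ to 3′ on the strand of the gene in RefSeq coordinates of GRCh38.p14, with the E-box in capitals.
LAMP1 (chr13:113297035-113297114, plus strand, 204 to 125 bases upstream): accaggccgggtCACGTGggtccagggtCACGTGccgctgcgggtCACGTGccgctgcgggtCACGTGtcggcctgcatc
LAMP1 (chr13:113297199-113297228, plus strand, 40 to 11 bases upstream): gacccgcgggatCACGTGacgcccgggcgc
MCOLN1 (chr19:7522571-7522623, plus strand, 53 to 1 bases upstream): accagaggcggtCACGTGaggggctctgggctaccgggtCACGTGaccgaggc
NEU1 (chr6:31862930-31862959, minus strand, 138 to 109 bases upstream): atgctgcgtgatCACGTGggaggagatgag
CTSF (chr11:66568640-66568669, minus strand, 63 to 34 bases upstream): ccctgcgcgcccCACGTGcctcctgtaaac
ARSB (chr5:78986101-78986130, minus strand, 172 to 143 bases upstream): taattcaataagCACGTGactaaaggattt
LAMP1, which rose by 0.90, had 6 E-boxes in its window, the most of the members with a promoter sequence, of which 5 stand in these stretches. The sixth begins 1 base before the start. NEU1, which fell by 0.96, and MCOLN1, which rose by 0.85, both have a T before the E-box on the strand shown. In ARSB, which fell, an A follows the E-box, so a T stands before it on the other strand. CTSF has a T before the E-box on neither strand in the stretch shown. A further E-box of CTSF, which is not shown, begins 123 bases before the start. An A follows that one, so a T stands before it on the other strand.

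Of the 11 lysosomal proteases, 9 fell and 2 rose, where 31.5% of all tested genes fell and 29.2% rose. CTSB, a cysteine protease of broad specificity, had 1451, 1609 and 1497 CPM in libraries labelled FOXF1-activated, against 3047, 3317 and 3158 CPM in the controls. It fell by 1.06 on the log2 scale (standard error 0.056, edgeR adjusted p = 2.62e-07), and the groups did not overlap. CTSL, a cysteine protease of the same papain family, went the other way. It had 348, 319 and 324 CPM in libraries labelled FOXF1-activated, against 142, 155 and 134 CPM in the controls, a log2 fold change of 1.20 (standard error 0.066, edgeR adjusted p = 3.34e-07). Its nearest relative in the genome, CTSV, fell by 1.94, to 5.31 ± 0.43 CPM in libraries labelled FOXF1-activated, against 20.4 ± 1.6 CPM in the controls (SD, n = 3 each).

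CTSK, the collagen-degrading cathepsin best known from bone-resorbing cells, also rose. It stood at 10.5, 11.03 and 11.99 CPM in libraries labelled FOXF1-activated, against 5.73, 4.46 and 5.51 CPM in the controls (log2 fold change 1.09, edgeR adjusted p = 9.41e-05), which is low beside CTSL. CTSS, a cathepsin that antigen-presenting cells use to cleave the invariant chain, fell most among the proteases, with 7.16, 6.84 and 7.41 CPM in libraries labelled FOXF1-activated, against 23.8, 23.5 and 25.00 CPM in the controls (log2 fold change -1.75, edgeR adjusted p = 2.86e-07). CTSH, an aminopeptidase, fell by 1.46. CTSF, a further papain-family member, had 4.44, 5.19 and 4.77 CPM in libraries labelled FOXF1-activated, against 12.2, 15.2 and 12.8 CPM in the controls, and fell by 1.48. Because CTSS and CTSK are abundant in macrophages and osteoclasts, markers of these cells were read beside them. The 8 leukocyte and macrophage markers summed to 16.1 to 19.8 CPM in libraries labelled FOXF1-activated and 15.6 to 21.0 CPM in the controls, ranges that overlap, with 1 marker higher (PTPRC, log2 fold change 0.38) and 1 lower (CD14, -2.73). PTPRC made up most of both sums. TYROBP, a signalling adaptor of myeloid cells, had 0 counts in all 6 libraries. The 5 osteoclast markers summed to 4.63 to 5.98 CPM in libraries labelled FOXF1-activated and 5.47 to 5.94 CPM in the controls, with OCSTAMP at 0 counts and DCSTAMP at 0 to 4. TNFRSF11A made up most of both sums, and ACP5, the tartrate-resistant acid phosphatase, fell by 1.16 (edgeR adjusted p = 0.0167). The part of these markers in the changes of CTSS, CTSK and CD68 was not tested.

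The remaining proteases fell by less, apart from TPP1. TPP1, the tripeptidyl peptidase deficient in a form of Batten disease, had 201, 234 and 216 CPM in libraries labelled FOXF1-activated, against 468, 523 and 484 CPM in the controls, and fell by 1.18. CTSZ, a carboxypeptidase, fell by 0.62, and CTSA, the serine carboxypeptidase that protects NEU1 and beta-galactosidase, by 0.45. CTSC, the dipeptidyl peptidase that activates granule proteases, fell by 0.26. CTSD, the main aspartic protease, had 433, 495 and 426 CPM in libraries labelled FOXF1-activated, against 525, 551 and 521 CPM in the controls, and fell by 0.24 (edgeR adjusted p = 0.0101). That call was lost with offsets for GC content and transcript length (log2 fold change -0.0098, edgeR adjusted p = 0.883) and under upper-quartile scaling (-0.14, edgeR adjusted p = 0.0837).

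**Figure D2:**
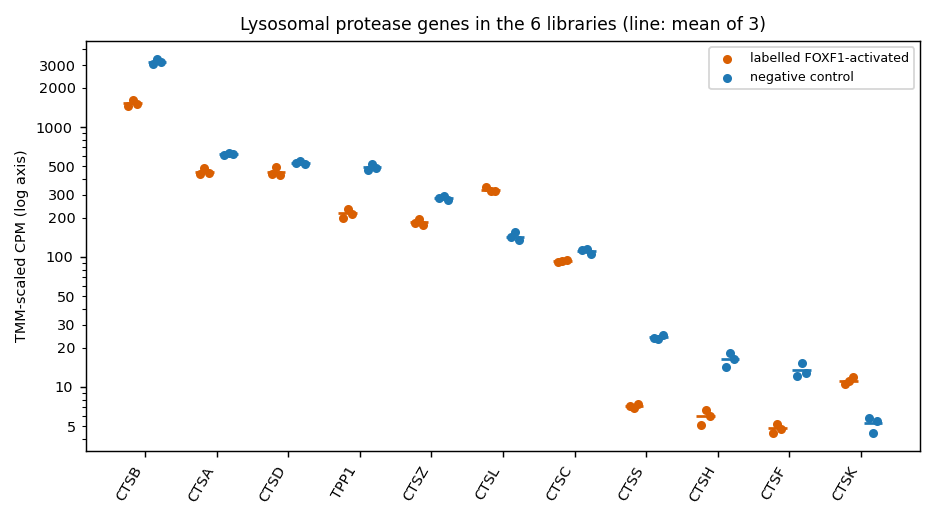
TMM-scaled CPM (log axis) of the 11 protease genes in each of the 6 libraries, with the libraries labelled FOXF1-activated in orange, negative control in blue, and a line at the mean of 3. The groups do not overlap for any of the 11, and CTSL and CTSK are the genes whose orange points lie above the blue ones. For 68.8% of all tested genes the groups did not overlap.

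Glycosidases, which remove sugars from glycoproteins, glycolipids and glycosaminoglycans, fell for 7 of 10 genes and rose for 2. The shares of all tested genes that fell and rose were 31.5% and 29.2%. GLA, the alpha-galactosidase deficient in Fabry disease, had 126, 116 and 129 CPM in libraries labelled FOXF1-activated, against 65.3, 58.7 and 60.3 CPM in the controls, a log2 fold change of 1.01 (standard error 0.064, edgeR adjusted p = 7.98e-07). HEXA, the alpha subunit of beta-hexosaminidase, rose by 0.20 (edgeR adjusted p = 0.00629), a change of 1.15-fold that missed the threshold when only library totals were used for scaling (0.12, edgeR adjusted p = 0.0520).

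Among the glycosidases that fell, IDUA, the iduronidase of heparan and dermatan sulfate breakdown, had 1.46, 1.88 and 1.39 CPM in libraries labelled FOXF1-activated, against 4.37, 4.51 and 4.93 CPM in the controls (log2 fold change -1.55). NAGLU, which acts on heparan sulfate, had 15.8, 17.9 and 14.9 CPM in libraries labelled FOXF1-activated, against 32.2, 34.6 and 34.9 CPM in the controls, and fell by 1.06. NEU1, the lysosomal sialidase, had 39.8, 43.02 and 39.6 CPM in libraries labelled FOXF1-activated, against 73.1, 83.6 and 82.2 CPM in the controls, and fell by 0.96. The groups were apart in each of these genes, as they were for 68.8% of all tested genes. MANBA, the beta-mannosidase, fell by 0.69, GAA, the glycogen-degrading alpha-glucosidase deficient in Pompe disease, by 0.59, GUSB, beta-glucuronidase, by 0.49, and MAN2B1, the alpha-mannosidase, by 0.31. The MAN2B1 call was lost with offsets for GC content and length (-0.12, edgeR adjusted p = 0.0743). GLB1, the beta-galactosidase, had 132, 137 and 134 CPM in libraries labelled FOXF1-activated, against 132, 138 and 127 CPM in the controls, ranges that overlap (log2 fold change 0.02, edgeR adjusted p = 0.737).

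All 4 sulfatases fell, where 31.5% of all tested genes did. ARSA (chr22:50622754-50628173 in GRCh38, minus strand), which desulfates sulfatide and is deficient in metachromatic leukodystrophy, had 6.09, 7.49 and 7.37 CPM in libraries labelled FOXF1-activated, against 35.2, 35.5 and 33.1 CPM in the controls. Its log2 fold change of -2.31 (standard error 0.11, edgeR adjusted p = 1.19e-07) was the most negative of all 31 hydrolase and cofactor genes. ARSB, which acts on dermatan and chondroitin sulfate, had 4.44, 4.36 and 3.67 CPM in libraries labelled FOXF1-activated, against 13.9, 15.3 and 14.2 CPM in the controls (log2 fold change -1.80, edgeR adjusted p = 1.56e-06). All 3 libraries labelled FOXF1-activated lay below the controls in both genes, as in 35.3% of all tested genes. IDS, the iduronate sulfatase of Hunter syndrome, had 145, 144 and 141 CPM in libraries labelled FOXF1-activated, against 201, 212 and 206 CPM in the controls, and fell by 0.53, and SGSH, the heparan sulfamidase, by 0.40 (edgeR adjusted p = 0.0115). SUMF1, which encodes the enzyme that activates sulfatases, was not called, at 42.1 ± 2.1 CPM in libraries labelled FOXF1-activated and 42.2 ± 1.6 CPM in the controls (SD, n = 3 each; edgeR adjusted p = 0.972).

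Genes of lipid and lipoprotein turnover divided evenly, 3 higher and 3 lower, beside 29.2% higher and 31.5% lower of all tested genes. LIPA (chr10:89213569-89414557, minus strand), the acid lipase that hydrolyses cholesteryl esters and triglycerides taken up in lipoproteins, had 38.6, 41.1 and 40.7 CPM in libraries labelled FOXF1-activated, against 142, 153 and 142 CPM in the controls. It fell by 1.86 (standard error 0.058, edgeR adjusted p = 1.98e-08), the smallest adjusted p of the 49 genes. An exon of LIPA overlaps IFIT2 on the opposite strand, an interferon-induced gene with 37124 counts over the 6 libraries that fell by 3.87, and whether counting used the strand is not given in the sources used here. ASAH1, acid ceramidase, had 63.4, 66.3 and 64.1 CPM in libraries labelled FOXF1-activated, against 102, 120.0 and 117 CPM in the controls, and fell by 0.81. GRN, which encodes progranulin, a secreted precursor cleaved into granulins in the lysosome, had 569.6, 613 and 569.8 CPM in libraries labelled FOXF1-activated, against 897, 965 and 923 CPM in the controls, and fell by 0.67.

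PSAP, whose product prosaposin is cleaved into the saposin activators of sphingolipid hydrolases, rose. It had 2777, 2807 and 2695 CPM in libraries labelled FOXF1-activated, against 2086, 2292 and 2158 CPM in the controls (log2 fold change 0.34, edgeR adjusted p = 2.17e-04). PPT1, the palmitoyl-protein thioesterase, had 299.8, 258 and 271 CPM in libraries labelled FOXF1-activated, against 206, 214 and 202 CPM in the controls. It rose by 0.41, and overlaps CAP1 on the opposite strand, which rose by 0.92. CAP1 had 331943 counts over the 6 libraries beside 107659 of PPT1, so the PPT1 value is uncertain if counting ignored the strand. SMPD1, acid sphingomyelinase, had 12.1, 16.1 and 13.7 CPM in libraries labelled FOXF1-activated, against 10.9, 10.6 and 8.25 CPM in the controls, and rose by 0.50 (edgeR adjusted p = 0.0152). That call was lost without FOXF1-activated replicate 2 (0.39, edgeR adjusted p = 0.0607) and without negative control replicate 3 (0.38, edgeR adjusted p = 0.0636).

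Scaled to transcript length, the order of the most abundant members differed between the groups. PSAP came first in the libraries labelled FOXF1-activated, at 938 to 977 CPM per kilobase, followed by CD63 at 531 to 545 and CTSB at 375 to 415. In the controls CTSB came first at 786 to 856 CPM per kilobase, followed by PSAP at 726 to 798 and CD63 at 546 to 617. In the libraries labelled FOXF1-activated these 3 ranges are apart. In the controls the ranges of CTSB and PSAP overlap, but CTSB was above PSAP in each of the 3 libraries. GRN was the fourth in both groups, at 243 to 262 CPM per kilobase in the libraries labelled FOXF1-activated and 383 to 412 in the controls. ATP6V1D ranked 12 and ATP6V1B2 ranked 13 of 49 in the libraries labelled FOXF1-activated, against 25 and 27 in the controls.

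**Figure D3:**
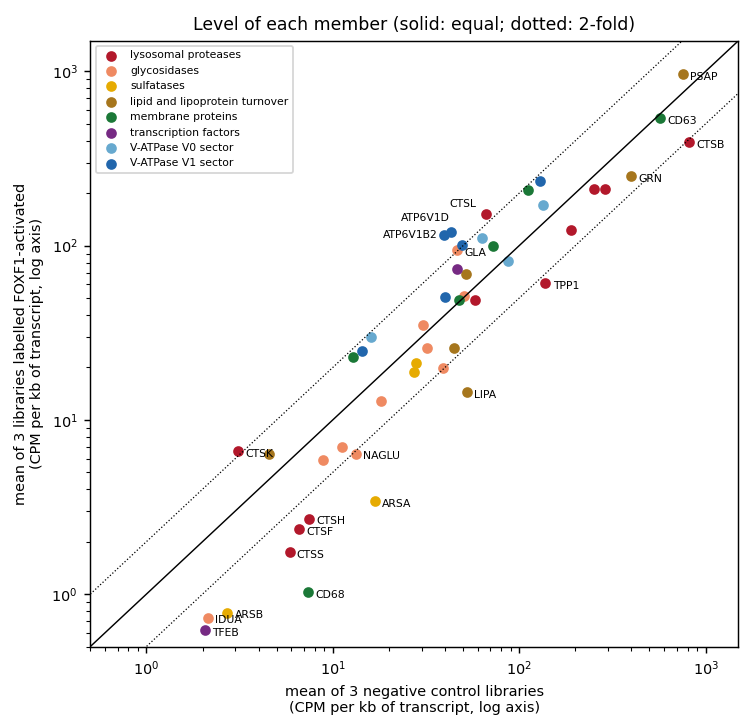
Mean level of each of the 49 genes in CPM per kilobase of principal transcript, in libraries labelled FOXF1-activated (vertical, log axis) against negative control (horizontal, log axis), coloured by role, with the solid line at equal levels and dotted lines at 2-fold. Pump subunits lie on or above the solid line apart from ATP6V0D1 just under it, and most hydrolases below it, with TFEB the lowest at 0.621 and 2.05.

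Membrane proteins moved less uniformly. LAMP1, the most abundant glycoprotein of the lysosomal membrane together with LAMP2, had 559, 573 and 547 CPM in libraries labelled FOXF1-activated, against 307, 301 and 293 CPM in the controls. It rose by 0.90 (standard error 0.048, edgeR adjusted p = 2.81e-07), and the groups did not overlap. LAMP2, which is also the receptor of chaperone-mediated autophagy in its A form, had 410.3, 403 and 383 CPM in libraries labelled FOXF1-activated, against 285, 295 and 292 CPM in the controls, and rose by 0.46 (edgeR adjusted p = 2.85e-05). MCOLN1, the calcium channel TRPML1 of the lysosomal membrane, had 52.1, 47.1 and 44.7 CPM in libraries labelled FOXF1-activated, against 27.9, 21.8 and 30.2 CPM in the controls, a log2 fold change of 0.85. Its exons overlap those of PNPLA6 on the same strand, which had 97573 counts over the 6 libraries and rose by 0.81, so reads may be shared.

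CD68 (chr17:7579467-7582113, plus strand), a sialomucin of late endosomes that is abundant in macrophages, fell most of all 49 genes. It had 2.71, 1.64 and 1.43 CPM in libraries labelled FOXF1-activated, against 13.9, 13.5 and 13.9 CPM in the controls, a log2 fold change of -2.84 (standard error 0.23, edgeR adjusted p = 3.71e-06). The macrophage markers given beside CTSS apply to it as well. CD63, a tetraspanin of late endosomes and exosomes, had 671.7, 654.8 and 663.4 CPM in libraries labelled FOXF1-activated, against 673.2, 760.3 and 679.3 CPM in the controls. Its values lay below all controls by a narrow margin. CD63 and SCARB2, an abundant protein of the lysosomal membrane that also acts as a sorting receptor, were not called (log2 fold changes -0.09 and 0.04, edgeR adjusted p = 0.222 and 0.527). The sign of CD63 turned under upper-quartile scaling (0.013), and that of SCARB2 under library totals (-0.039) and with GC and length offsets (-0.0020).

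Of the 10 V-ATPase subunit genes among the 49, 9 rose. All 6 V1 subunits on the list were higher, where 29.2% of all tested genes rose. In all 6, every library labelled FOXF1-activated lay above every control, as in 33.5% of all tested genes. ATP6V1B2, the B subunit of the catalytic ring in its widely expressed form, had 346, 314 and 335 CPM in libraries labelled FOXF1-activated, against 115, 119 and 107 CPM in the controls. Its log2 fold change of 1.55 (standard error 0.062, edgeR adjusted p = 6.61e-08), or 2.92-fold, was the highest of the 49 genes. ATP6V1A, the A subunit that hydrolyses ATP in the same ring, had 131, 97.5 and 113 CPM in libraries labelled FOXF1-activated, against 67.7, 64.4 and 64.5 CPM in the controls (log2 fold change 0.79, edgeR adjusted p = 5.77e-05). The libraries labelled FOXF1-activated spread more in this gene than in the other V1 subunits.

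Subunits of the rotor and stalks rose as well. ATP6V1D, of the central rotor, had 235, 203 and 223 CPM in libraries labelled FOXF1-activated, against 78.5, 84.6 and 76.5 CPM in the controls (log2 fold change 1.46, standard error 0.069). Its exons overlap EIF2S1 on the opposite strand, which had 57805 counts beside 66112 of ATP6V1D and rose by 0.89. ATP6V1E1, of the peripheral stalks, had 341, 322 and 328 CPM in libraries labelled FOXF1-activated, against 182, 189 and 171 CPM in the controls (log2 fold change 0.87). ATP6V1H, which regulates coupling of the sectors, had 219, 189.9 and 201 CPM in libraries labelled FOXF1-activated, against 92.7, 103 and 100.3 CPM in the controls (log2 fold change 1.04). ATP6V1C1, whose product links the stalks to V0 and leaves the complex when the sectors part, changed least, with 292, 278 and 285 CPM in libraries labelled FOXF1-activated, against 209, 232 and 232 CPM in the controls (log2 fold change 0.35, edgeR adjusted p = 4.86e-04).

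Of the 4 V0 subunits among the 49 genes, 3 rose and 0 fell, where 29.2% of all tested genes rose and 31.5% fell. ATP6V0A1, a form of the large a subunit, had 91.2, 85.3 and 96.2 CPM in libraries labelled FOXF1-activated, against 51.4, 48.95 and 45.02 CPM in the controls (log2 fold change 0.91, edgeR adjusted p = 2.80e-06). ATP6V0B and ATP6V0C encode proteolipids of the proton-carrying ring. ATP6V0B had 154, 134 and 142 CPM in libraries labelled FOXF1-activated, against 77.8, 84.2 and 84.1 CPM in the controls, and rose by 0.81. ATP6V0C had 199, 221 and 184 CPM in libraries labelled FOXF1-activated, against 156, 150.3 and 169 CPM in the controls, and rose by 0.34, the least of the V0 subunits that rose. ATP6V0D1, which couples the ring to the rotor, had 141.6, 141.6 and 136.7 CPM in libraries labelled FOXF1-activated, against 142.3, 154.1 and 149.2 CPM in the controls. All 3 of its values lay below the controls, yet it was not called (log2 fold change -0.09, edgeR adjusted p = 0.185), and its sign turned under upper-quartile scaling (0.014) and with GC and length offsets (0.098).

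**Figure D4:**
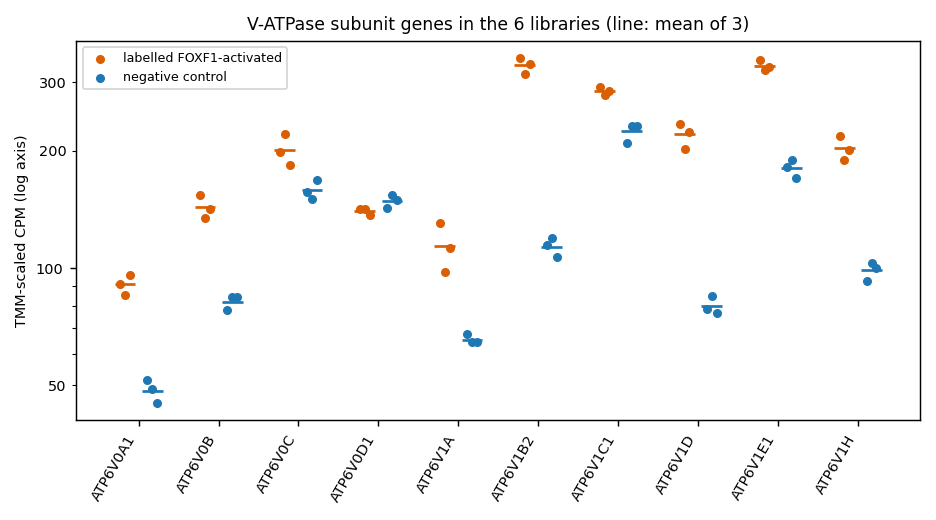
TMM-scaled CPM (log axis) of the 10 V-ATPase subunit genes in each of the 6 libraries, with the libraries labelled FOXF1-activated in orange, negative control in blue, and a line at the mean of 3. For 9 genes all orange points lie above all blue ones, and ATP6V0D1, at 136.7 to 141.6 and 142.3 to 154.1 CPM, is the exception. Among all tested genes, 33.5% had every library labelled FOXF1-activated above every control.

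The other subunits and partners of the pump went both ways. Of 19 tested, 5 rose, 5 fell and 9 were not called, near the 29.2% higher and 31.5% lower of all tested genes. The median log2 fold change of the 19 was -0.02. Some of those not called had few counts, with 4 to 36 a library for ATP6V1B1 and 5 to 53 for ATP6V1G2. ATP6V1C2 and ATP6V1E2 averaged 1.44 and 2.51 CPM in libraries labelled FOXF1-activated, against 1.71 and 3.41 CPM in the controls. Others were abundant, such as ATP6AP2 at 177 and 179 CPM. These 5 genes are named with their values already seen. Those that rose included ATP6AP1, an assembly subunit (0.55), and the stalk gene ATP6V1G1 (0.60). ATP6V1F, a small subunit of the central rotor, fell by 0.70, and ROGDI, a component of the RAVE-like complex that joins V1 to V0, fell by 2.68, to 2.18 ± 0.36 CPM in libraries labelled FOXF1-activated, against 13.9 ± 2.5 CPM in the controls (SD, n = 3 each). The forms of the a subunit, looked at with their values already seen, differed in sign. ATP6V0A1, ATP6V0A2 and ATP6V0A4 rose (0.91, 0.50 and 1.02), while TCIRG1, the form enriched at the osteoclast surface, fell by 0.45. Per kilobase of transcript, ATP6V0A1 and TCIRG1 stood at 30.01 and 29.4 CPM in libraries labelled FOXF1-activated, against 16.01 and 40.1 CPM in the controls.

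Hydrolases outside the list were mostly lower too. Of 29 other hydrolases and cofactors, 19 fell, 2 rose and 8 were not called, against 31.5% lower and 29.2% higher of all tested genes. The median log2 fold change of the 29 was -0.84. PRCP, a prolyl carboxypeptidase (-1.64), and CTSV were among the 4 with the smallest p. GALC (2.09), the galactosylceramidase, was among the 2 that rose, and like SUMF1 it is named with its values already seen.

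Other lysosomal membrane proteins went both ways, 8 of 24 higher and 14 lower, with a median log2 fold change of -0.44. Of all tested genes, 29.2% were higher, near the share of this list, and 31.5% lower. NPC1, which exports cholesterol from the lysosome, rose by 1.29, to 1076 ± 14 CPM in libraries labelled FOXF1-activated, against 439 ± 27 CPM in the controls (SD, n = 3 each), and LAPTM4A rose by 0.72. The endolysosomal cation channel gene TPCN1 fell by 1.60 and LAPTM4B by 0.65.

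Genes that deliver enzymes to the lysosome were more often higher, 12 of 20, with 5 lower and a median log2 fold change of 0.34. Of all tested genes, 29.2% were higher and 31.5% lower. IGF2R, the large mannose 6-phosphate receptor, rose by 1.22, to 1194 ± 50.3 CPM in libraries labelled FOXF1-activated, against 513 ± 5.1 CPM in the controls (SD, n = 3 each). RAB7A, the small GTPase of late endosomes, rose by 0.76. GNPTAB, the catalytic subunit of the enzyme that adds the mannose 6-phosphate tag, fell by 1.40 (edgeR adjusted p = 5.87e-07), and AP1M1, of the AP-1 adaptor, by 0.81. In the list of nutrient signalling to TFEB and TFE3, 12 of 24 genes rose and 8 fell, with a median of 0.15. The share that fell lay near that of all tested genes. TSC1 (1.15), LAMTOR3 (1.16) and FNIP1 (0.99) rose, and MLST8, a core subunit of the mTOR complexes, fell by 1.47.

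**Figure D5:**
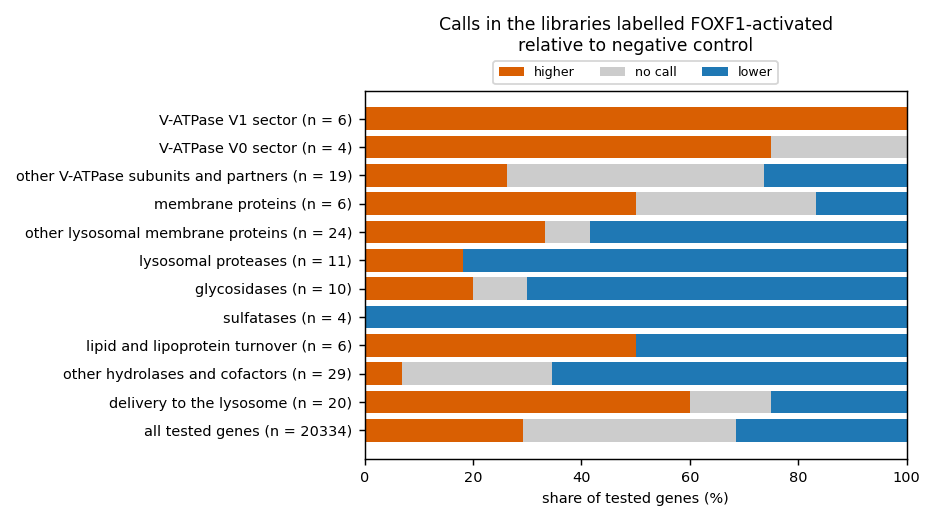
Share of tested genes (horizontal, %) called higher (orange), not called (grey) or lower (blue) in the libraries labelled FOXF1-activated relative to negative control, for the roles of the members, for further lists of lysosomal genes and for all 20334 tested genes. Of the 49 genes, the V1 subunits are higher for 6 of 6 and the sulfatases lower for 4 of 4, while 29.2% of all tested genes were higher and 31.5% lower.

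Reads of some members could be shared with other genes. Exons of 17 of the 49 overlapped another gene with at least 500 counts, or the gene had a named pseudogene with as many. IDUA overlaps SLC26A1 on the opposite strand, with 833 counts beside 1404 of IDUA, and both fell. SGSH overlaps SLC26A11 on the opposite strand, a gene that rose by 0.79 while SGSH fell. GUSB had 16002 counts over the 6 libraries and its pseudogene GUSBP11 had 17389 (log2 fold change -0.0022, edgeR adjusted p = 0.980), so the GUSB value is uncertain. CD68 held 3599 counts and the identifier ENSG00000264772, which overlaps it on the same strand, 25113 (0.64, edgeR adjusted p = 0.0882).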

How the data were processed

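Total RNA of 6 T24 libraries was sequenced after depletion of ribosomal RNA with a kit that marks strand, per the labels' protocols. The deposited table holds whole-number counts for 60612 Ensembl identifiers, with no normalization by the authors visible in the values. Per the submitters' processing notes, cutadapt 1.9 and TopHat2 2.0.4 were used with GRCh38. Neither the counting tool nor its use of strand is given there. The values 4, 8 and 12 were 2.36, 1.94 and 1.60 times as frequent as their neighbours, so the depth may be overstated, and a fit on counts divided by 4 was run as an alternative.

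Genes passing filterByExpr (minimum count 10, minimum total 15) were compared with edgeR 4.0.16 (R 4.3.3) by its quasi-likelihood test after TMM scaling, over all 20334 tested genes, with Benjamini-Hochberg adjustment and a threshold of 0.05. The script was tested on simulated data in which few genes changed, in both directions. That could not test the scaling under changes as broad as those here. The standard error is the size of the log2 fold change divided by the square root of F. Symbols matched 60401 identifiers. Levels per kilobase use the principal transcript of GENCODE 29, which held 58394 of the identifiers.

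All 49 genes are named, with FOXF1 and up to 4 genes of each further list with the smallest p; markers are given by their sums, with those at 0 counts; others are marked as named with values seen, and some genes of the further lists are not reported here. The genes and lists were chosen with earlier results of these data known. Alternatives were other scalings, filters and tools (DESeq2 1.42.0, limma 3.58.1), offsets for GC content and length, a replicate block and leaving out each library.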

Additional observations from a re-analysis of the deposited data

How the results depend on the processing

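Of 784 values of the 49 genes over 16 alternative settings, 766 kept their direction and side of the threshold, 6 lost the call, 4 gained it and 8 changed sign. Only genes near 0 changed sign. CD63 was 0.0133 with upper-quartile scaling. GLB1 was -0.0561 with library totals, -0.0040 with no filter and -0.0131 to 0.0498 when a library was left out. SCARB2 was -0.0392 with library totals and -0.0020 with GC and length offsets. ATP6V0D1 was 0.0141 with upper-quartile scaling and 0.0981 with GC and length offsets. The cause was not tested. Calls were gained by CD63 (-0.16 with library totals and -0.19 with GC and length offsets), SCARB2 (0.14 with upper-quartile scaling) and ATP6V0D1 (-0.16 with library totals). Over the settings that keep all libraries, 19 to 21 of the 49 genes were higher and 24 to 27 lower. The median of all tested genes moved by at most 0.0992, with upper-quartile scaling, and that of the 49 genes lay between -0.32 with library totals and -0.12 with GC and length offsets.

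With the replicate block, 20 of the 49 genes were higher and 25 lower, and FOXF1 had a log2 fold change of -0.52. The numbers did not pair the libraries, since deviations of same-numbered libraries correlated at -0.02, -0.001 and -0.021. Precision is limited by 3 libraries a group, and for genes with few counts also by depth. TFEB had 89 to 384 counts a library and IDUA 103 to 369. CD68, with the largest standard error of the 49 genes (0.23), had 107 to 191 counts in the libraries labelled FOXF1-activated.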
